A study of Homo sapiens and Mus musculus with 47 samples.

Results

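HTT, SH3KBP1, LAS1L, GAB2, CEP250 and ZC3H7B are 6 of the 57820 genes in the human count tables. They were chosen by their measured levels: their read counts were far lower in all 3 libraries of HEK293T cells given a control antisense oligonucleotide (ASO) than in every other RNA-seq library of that cell line. The low level with the control ASO is therefore given as a description, without a test. The other HEK293T RNA-seq libraries took part in the choice through their lowest level, and only the HCT116 libraries did not enter it.

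HTT encodes huntingtin, a large scaffold protein of vesicle transport and autophagy, and an expanded CAG repeat in its first exon causes Huntington's disease. SH3KBP1 (CIN85) and GAB2 are adaptor proteins that act downstream of receptor tyrosine kinases, the former in receptor endocytosis with CBL and the latter by docking PI3 kinase and the phosphatase SHP2. CEP250 (C-Nap1) links the centrioles of a centrosome, LAS1L is needed to process the ribosomal RNA spacer in the nucleolus, and ZC3H7B is a zinc finger protein that binds RNA. An ASO is a short synthetic strand that pairs with a complementary RNA, and many designs lead to cleavage of that RNA by RNase H.

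The HEK293T line (human embryonic kidney) gave 17 RNA-seq libraries in 6 groups. In 4 groups the cells received the control ASO, an ASO against the long noncoding RNA SETD5-AS1, an ASO against LINC00641 or an ASO against LINC00662, and in the other 2 they carried the CBX7 reader, a domain that binds the repressive histone mark H3K27me3, or were labelled Control. The methods set the CBX7 cells against untreated HEK293T cells. Each group had 3 libraries, except LINC00641 ASO with 2. HCT116 cells (colon carcinoma) gave 6 Chrom-seq libraries, in which a peroxidase brought by the TAF3 reader to H3K4me3, a mark of active promoters, or expressed without a reader in Control, biotinylated nearby RNA. The labels give all samples the same protocol of 48 h of construct expression, 500 µM biotin-aniline for 30 min and 1 mM H2O2 for 1 min, and the methods name ASOXNC23 as the negative control ASO. The methods describe RNA-seq from total RNA and name no labelling step there. Whether the ASO and Control cells of the RNA-seq went through the labelled protocol is thus uncertain. The legends speak of independent replicates for the CBX7 RNA-seq and for Chrom-seq in HEK293T, without naming separate cultures, and no such words were found for the ASO or HCT116 libraries. The p-values there measure the spread between these libraries, which may be technical.

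Total counts were 11641275 to 13713968 with the control ASO and 8258859 to 15330874 in the 14 other HEK293T RNA-seq libraries. Each targeted RNA was low with its own ASO, at 4.29 CPM (counts per 1000000 counts, scaled with TMM factors, which correct for composition) for SETD5-AS1, 1.42 CPM for LINC00641 and 1.59 CPM for LINC00662, against 53.2, 40.9 and 13.4 CPM with the control ASO. SETD5-AS1 was itself highest with the control ASO. In the groups given neither its own ASO nor the control ASO, its mean was 28.8 to 34.5 CPM. In such groups the mean of LINC00641 was 26.5 to 60.3 CPM and that of LINC00662 12.1 to 17.9 CPM. The labelled lines were checked against marker genes. NEFL had 160 to 303 CPM in HEK293T and 0 in HCT116, and KRT19 had 1474 to 2030 CPM in HCT116 and at most 0.379 CPM in HEK293T, but PAX2, a kidney marker, was not higher in HEK293T (5.04 to 11.0 CPM) than in HCT116 (8.88 to 13.4 CPM). Mitochondrial counts made up 3.05% to 3.48% of the control ASO libraries and 2.18% to 3.11% of the other 14, and the TMM factors were 0.934 to 0.956 against 0.983 to 1.06. Their part in the low levels was not tested.

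The sequences of the ASOs are shown because the negative control is meant to have no target, and the genes described were low with it. The control ASO and the sequence that would pair with all of its bases are followed by the sites in HTT and SH3KBP1 with the longest unbroken match, written on the sense strand, where capitals mark the bases of that run and lower case may hold further paired bases. Next come an ASO against each targeted RNA and, for comparison, the fully matched site of SETD5-AS1-ASO-1 and the best site of LINC00662-ASO-2 in HTT.
ASOXNC23: ttctccgaacgtgtcacgtt
Full complement of ASOXNC23: aacgtgacacgttcggagaa
HTT site for ASOXNC23: aatcTGACACGTTCtgatcg
SH3KBP1 site for ASOXNC23: aatctgtcagGTTCGGAGAA
SETD5-AS1-ASO-1: atcaatgaggatgtcatcac
LINC00641-ASO-1: gatgtggagcaacagaaatg
LINC00662-ASO-2: actctgtctcaaataacttg
SETD5-AS1 site for SETD5-AS1-ASO-1: GTGATGACATCCTCATTGAT
HTT site for LINC00662-ASO-2: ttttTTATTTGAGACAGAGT

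The longest run of the control ASO's 20 bases on the sense strand of HTT was 10 bases, in an intron (hg19, chr4:3176331-3176340, plus strand), and the best site over its full length still had 6 mismatches. A run of at least 10 bases was present in 11.1% of 759 genes whose span was 0.8 to 1.25 times that of HTT. Of these genes, 84.8% had a best site with 6 mismatches or fewer. SH3KBP1 also held a run of 10 bases, in an intron (chrX:19823709-19823718, minus strand), as did 22.5% of 284 genes of like span. Its best site over the full length had 4 mismatches, a number as low in 3.52% of those genes.

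The other genes held shorter runs of the control ASO, 8 bases in LAS1L and GAB2 and 7 bases in CEP250 and ZC3H7B. Over 10887 genes searched the median was 8 bases and the longest run was 13 bases, in QDPR. The search found complete 20-base matches in exons of the intended RNA for 7 of the 8 targeting ASOs, and 18 bases for LINC00662-ASO-2. That ASO matched 16 bases in an intron of HTT (chr4:3129372-3129387), a run that 6.85% of the 759 genes of like span also held. Its best HTT site over the full length had 4 mismatches, as few in 64.8% of the 759 genes. For LINC00662-ASO-3 the best HTT site had 2 mismatches, as few in 23.3% of the 759 genes. HTT stood at 247 ± 7.19 CPM with the LINC00662 ASO (SD, n = 3), and the part of these matches in its level was not tested. A match is a stretch of letters and says nothing on binding, and which of the listed ASOs entered each library is not stated.

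HTT (ENSG00000197386.6, chr4:3076408-3245676, plus strand) had 47.4, 46.7 and 52.1 CPM in the control ASO libraries. The SETD5-AS1 ASO libraries had 259, 267 and 259 CPM, the LINC00641 ASO libraries 257 and 267 CPM, and the LINC00662 ASO libraries 240.5, 255 and 246 CPM. In the CBX7 experiment, CBX7 gave 249, 249 and 264 CPM and Control 307, 268 and 312 CPM. Thus the control ASO libraries stood alone at the bottom, while the other 14 libraries spanned a 1.30-fold range. The control ASO mean was 48.7 ± 2.94 CPM (SD, n = 3), or 18.4% ± 1.12 of the mean of the other 5 groups, 264 CPM. On the log2 scale the lowest other library exceeded the highest control ASO library by 2.20, and this gap ranked second among the 10908 genes that averaged 100 counts or more. By group mean the order ran from control ASO through LINC00662 ASO, CBX7, SETD5-AS1 ASO and LINC00641 ASO to Control, and each neighbouring pair from LINC00662 ASO to LINC00641 ASO overlapped.

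SH3KBP1 (ENSG00000147010.13, chrX:19552093-19905719, minus strand) had 13.5, 12.2 and 9.43 CPM with the control ASO. Levels were 47.9, 50.4 and 46.9 CPM with the SETD5-AS1 ASO, 53.2 and 48.8 CPM with the LINC00641 ASO, and 53.1, 56.7 and 53.9 CPM with the LINC00662 ASO. CBX7 libraries had 62.2, 53.9 and 55.4 CPM, and Control libraries 70.1, 65.4 and 66.2 CPM. The control ASO level was 21.1% ± 3.75 of the other groups, with a gap of 1.76 on the log2 scale, and the Control libraries lay above all others without overlap.

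GAB2 (ENSG00000033327.8, chr11:77926343-78129394, minus strand) had the lowest CPM of the 6 and varied most among the other groups. Its control ASO libraries had 4.79, 3.38 and 4.49 CPM, from 62, 39 and 50 counts. The SETD5-AS1 ASO gave 16.8, 15.2 and 15.2 CPM, the LINC00641 ASO 23.0 and 23.3 CPM, and the LINC00662 ASO 29.6, 32.5 and 30.3 CPM. With CBX7 it had 23.3, 18.4 and 21.6 CPM and in Control 29.8, 29.1 and 29.7 CPM. The control ASO level was 17.5% ± 3.08 of the other groups, and the gap was 1.57 on the log2 scale. The other libraries spanned a 2.14-fold range. The order of the groups was control ASO, SETD5-AS1 ASO, CBX7, LINC00641 ASO, Control and LINC00662 ASO, where CBX7 overlapped LINC00641 ASO and Control overlapped LINC00662 ASO.

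CEP250 (ENSG00000126001.11, chr20:34042985-34099804, plus strand) had 101, 100.5 and 111 CPM in the control ASO libraries. The 3 SETD5-AS1 ASO libraries had 384, 384 and 361 CPM, the 2 LINC00641 ASO libraries 407 and 374 CPM, and the 3 LINC00662 ASO libraries 404, 402 and 378 CPM. Values were 350.2, 331 and 343 CPM with CBX7 and 552, 428 and 524 CPM in Control. Against 401 CPM on average elsewhere, the control ASO libraries stood at 25.9% ± 1.48. The Control libraries were the highest and CBX7 the lowest of the other groups, with no overlap to their neighbours in the order.

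LAS1L (ENSG00000001497.12, chrX:64732462-64754655, minus strand) had 72.7, 76.7 and 78.2 CPM with the control ASO. The targeting ASOs gave 279, 288 and 248.5 CPM for SETD5-AS1, 345 and 306 CPM for LINC00641, and 335, 355 and 332.5 CPM for LINC00662. Libraries with CBX7 had 263, 262 and 258 CPM and those of Control 299, 279 and 309 CPM. The control ASO level was 25.4% ± 0.938 of the other groups, and LAS1L, like GAB2, had its highest group mean with the LINC00662 ASO. HTT, SH3KBP1, CEP250 and ZC3H7B had theirs in Control.

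ZC3H7B (ENSG00000100403.10, chr22:41697526-41756151, plus strand) had 65.4, 64.6 and 63.1 CPM in the control ASO libraries. It had 217, 240.0 and 192 CPM with the SETD5-AS1 ASO, 209.5 and 221 CPM with the LINC00641 ASO, and 224, 225 and 217 CPM with the LINC00662 ASO. The CBX7 experiment gave 227, 196 and 207 CPM with CBX7 and 260.1, 239 and 265 CPM in Control. At 28.8% ± 0.532 of the other groups, it was the least lowered of the 6, and the groups from CBX7 to the LINC00662 ASO overlapped along their order.

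**Figure D1:**
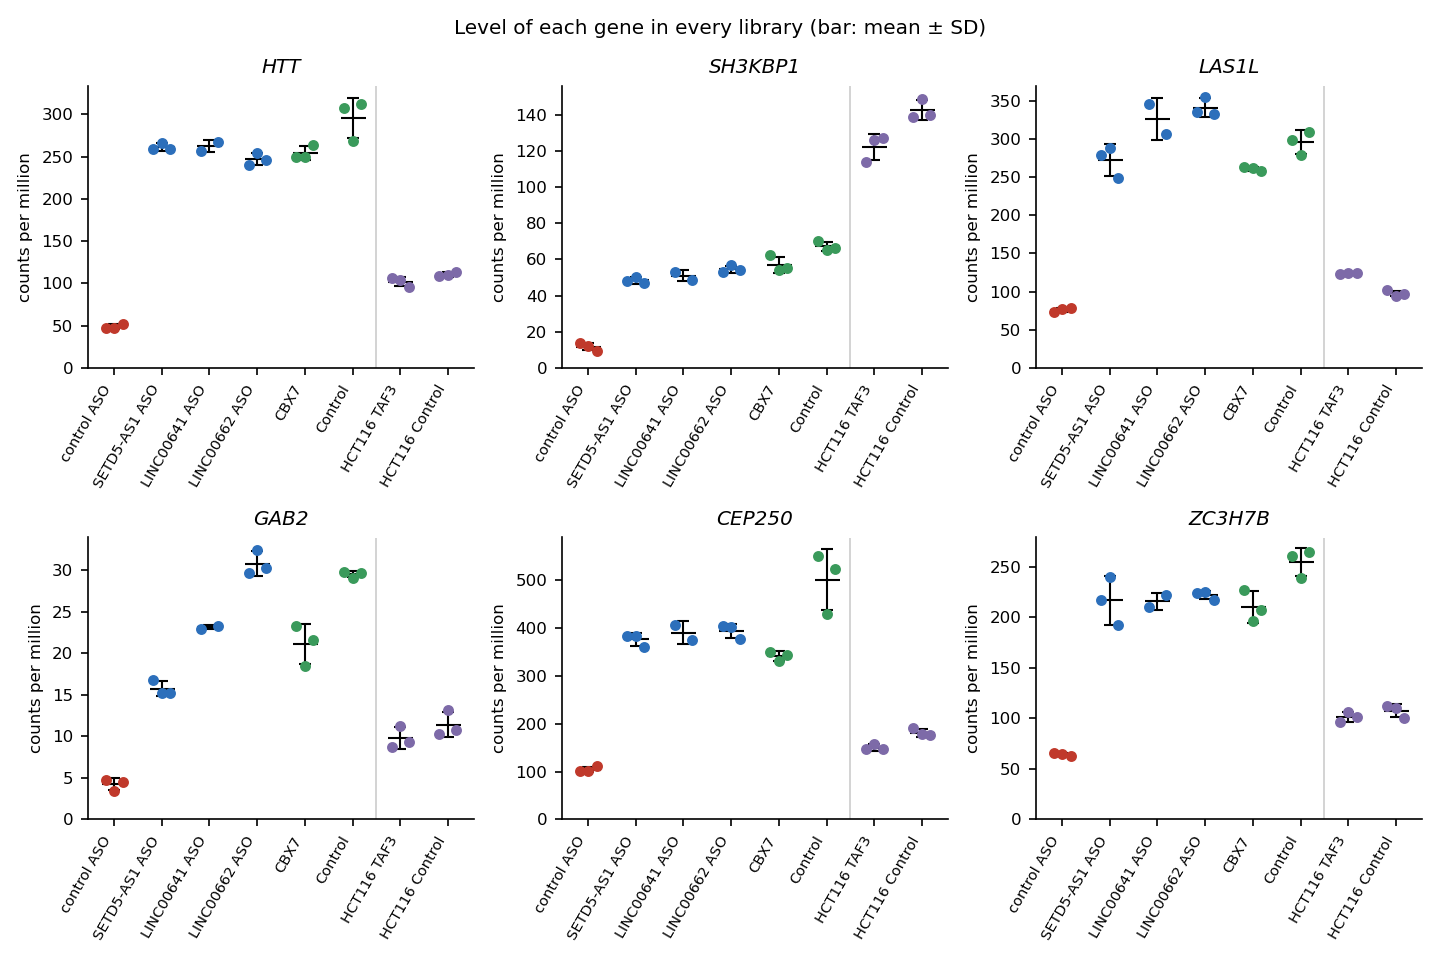
CPM (y axis, TMM scaled, from 0) of the 6 genes in every library, with HEK293T RNA-seq groups left of the grey line and HCT116 Chrom-seq groups, scaled in their own table, to its right; points are libraries and bars the mean ± SD. In each gene the 3 control ASO libraries lie below all 14 other HEK293T libraries.

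Set beside each other per kilobase of annotated exon, the mean level over the other 5 groups was 23.8 CPM per kb for LAS1L, 21.3 for ZC3H7B, 20.2 for CEP250, 12.3 for HTT, 3.55 for GAB2 and 3.42 for SH3KBP1. With the control ASO the same levels were 6.04, 6.12, 5.26, 2.28, 0.623 and 0.72 CPM per kb. The lengths join the exons of all annotated transcripts of a gene, so the order of the genes depends on the annotation. The genes thus kept a spread of levels in both settings, and the 6 were neither all abundant nor all rare. In these bulk libraries, fewer cells that carry an RNA and less RNA per cell cannot be told apart.

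All 6 genes had every control ASO library below every other library, which the choice fixed. Of those 10908 genes, 2073 (19.0%) lay below in this way and 2299 (21.1%) lay above. A gap of at least 1 on the log2 scale was present in 86 genes (0.788%) below and in 95 genes (0.871%) above. The 6 genes held places 2, 4, 5, 7, 8 and 10 in the ranking by gap. CEP250 moved from place 7 to 11 with library size alone and without control ASO replicate 1 or 2, and GAB2 from 8 to 13 without control ASO replicate 3. ZC3H7B, the last of them, had a gap of 1.55, and the next gene, ORC1, had 1.54. RRAGD, FAHD2CP, FAHD2B and FAHD2A, which are not among the 6, filled places 1, 3, 6 and 9, and RRAGD stood at 15.5% of the other groups. The 3 FAHD2 genes are closely related copies, so their separate counts are uncertain.

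**Figure D2:**
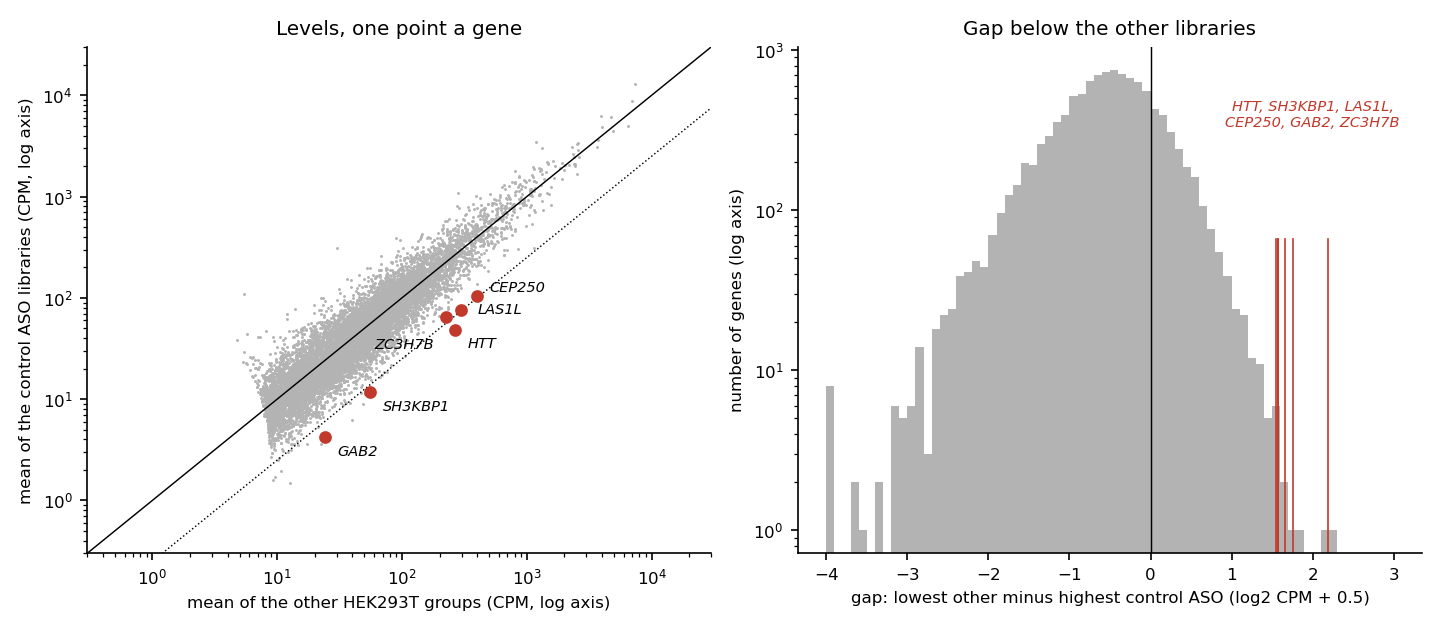
Left: mean of the control ASO libraries against the mean of the 5 other HEK293T groups (CPM, both axes log), 1 grey point for each of 10908 genes and the 6 genes in red; the solid line marks equal levels and the dotted line a level 4 times lower. Right: number of genes (log axis) by gap between the lowest other library and the highest control ASO library, with gaps under -4 drawn at -4; red lines mark the 6 genes, at 1.55 to 2.20.

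Fitted within the ASO table, the log2 fold change over the control ASO was 2.43, 2.44 and 2.40 for HTT, in the order SETD5-AS1, LINC00641 and LINC00662 ASO. For CEP250 the values were 1.87, 1.92 and 1.98, and for ZC3H7B 1.76, 1.75 and 1.84, in the same order. Those of GAB2 were spread more widely, at 1.90, 2.46 and 2.91. SH3KBP1 had 2.05, 2.12 and 2.26 and LAS1L 1.85, 2.12 and 2.22. The 3 comparisons share the control ASO libraries, and they chose the genes, so they are not separate evidence. Of all genes tested, 24.4%, 22.5% and 24.9% were called, that is, the adjusted p was under 0.05 and the size of the log2 fold change reached 0.75.

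Differences of the 6 genes between groups other than the control ASO were tested with edgeR's quasi-likelihood test and Benjamini-Hochberg adjustment over all genes. The HEK293T libraries set the lowest other level in the choice, and a gene with a low group among them was less likely to be picked, so these tests are not fully independent of it. Between the SETD5-AS1 and LINC00641 ASOs, 1.72% of 18337 genes were called and 0 of the 6, and 2 of the 6 had an unadjusted p under 0.05. DESeq2 also called 0 of the 6. HTT differed by 0.00 on the log2 scale (95% interval −0.15 to 0.16). GAB2 had a log2 fold change of −0.55 (standard error 0.114) with an edgeR adjusted p of 0.0107. This p was 0.0869 without LINC00641 ASO replicate 2 and 0.104 without replicate 3, where the remaining library was assumed to vary like the other group. Of all genes, 3.14% were lower at an adjusted p under 0.05 at any fold.

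Between the SETD5-AS1 and LINC00662 ASOs, 11.1% of 18417 genes were called, 2.50% as lower, and of the 6 only GAB2. GAB2 had 16.2 ± 0.903 CPM with the SETD5-AS1 ASO and 31.5 ± 1.57 CPM with the LINC00662 ASO (SD, n = 3 each), scaled over these 6 libraries. It fell by 0.95 on the log2 scale (standard error 0.0962), with an edgeR adjusted p of 4.41e-07, and the groups did not overlap, as for 21.7% of all genes in the lower direction. LAS1L was also lower, with a log2 fold change of −0.31 (95% interval −0.45 to −0.17) and an edgeR adjusted p of 0.00246, a size under the threshold. At any fold, 15.4% of all genes were lower at an adjusted p under 0.05, and 2 of the 6. The interval for HTT was −0.03 to 0.22, that for CEP250 −0.18 to 0.08 and that for ZC3H7B −0.17 to 0.13.

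Between the LINC00641 and LINC00662 ASOs, 8.41% of 18363 genes were called and 0 of the 6, by edgeR and by DESeq2, and 1 of the 6 had an unadjusted p under 0.05. That gene was GAB2, with a log2 fold change of −0.40 and an edgeR adjusted p of 0.00593, and 11.2% of all genes were lower at an adjusted p under 0.05. Hence GAB2 stood in the order SETD5-AS1 ASO, LINC00641 ASO, LINC00662 ASO. With all libraries in, each pair had an edgeR adjusted p under 0.05, and only the outer pair passed the fold threshold. Both inner pairs rest on the 2 LINC00641 ASO libraries. The loss of an adjusted p under 0.05 given above is that of the first pair alone. For both pairs, leaving 1 of these libraries out leaves a group with no measured spread. Between the LINC00641 and LINC00662 ASOs the other 5 genes had differences of at most 0.10 in size.

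With CBX7 against Control, 7.66% of 18204 genes were called and 0 of the 6, also by DESeq2. All 6 nevertheless had lower estimates with CBX7, the libraries of the groups did not overlap for any of them, and all 6 had an unadjusted p under 0.05. Over all genes, 22.6% were lower without overlap. The log2 fold change was −0.55 for CEP250 (342 ± 11.9 against 502 ± 60.2 CPM) with an edgeR adjusted p of 2.31e-04, and −0.49 for GAB2 (21.2 ± 2.57 against 29.6 ± 0.155 CPM) with an adjusted p of 0.00302. ZC3H7B had −0.28 with 0.0159, HTT −0.22 with 0.0452, SH3KBP1 −0.23 with 0.0473 and LAS1L −0.18 with 0.0759.

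Of the 6 genes, 5 thus had an adjusted p under 0.05 at any fold in the CBX7 comparison, where 15.4% of all genes did so in the lower direction. The number was 6 with the replicate number as a block. It was 3 with DESeq2, with DESeq2 size factors in edgeR or with library size alone. Without CBX7 replicate 2, CBX7 replicate 3, Control replicate 1 or Control replicate 3 it was 2, and CEP250 and GAB2 stayed under 0.05 in every one of these settings. The median of the 6 was −0.26, and that of all genes −0.01.

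**Figure D3:**
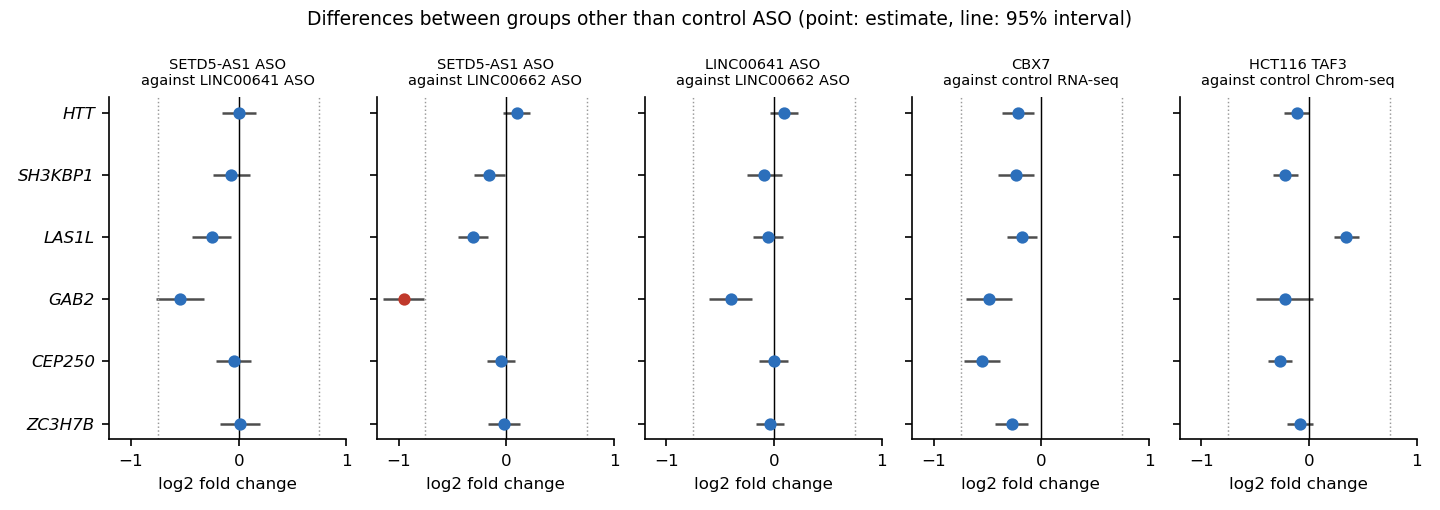
Log2 fold change (x axis) of the 6 genes in the 5 comparisons without the control ASO, with points for the estimate, lines for the 95% interval and dotted lines at the threshold of 0.75. GAB2 between the SETD5-AS1 and LINC00662 ASOs, in red, is the only called value, and all 6 estimates lie below 0 in the CBX7 comparison.

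In HCT116 cells the Chrom-seq table gives captured RNA and not total RNA, so its levels are set beside those of HEK293T without a test. HTT had 106, 104 and 96.1 CPM with TAF3 and 108, 110.0 and 114 CPM in Control, between the control ASO level and the other levels in HEK293T. The same held for LAS1L, GAB2, CEP250 and ZC3H7B. SH3KBP1 was the exception, with 114, 126 and 127 CPM with TAF3 and 139, 149 and 140.1 CPM in Control, all above the HEK293T libraries.

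TAF3 against Control called 6.62% of 18731 genes and 0 of the 6, by edgeR and by DESeq2, and 3 of the 6 had an unadjusted p under 0.05. The same 3 had an adjusted p under 0.05, where 34.9% of all genes did so in either direction. LAS1L had 123, 124 and 125 CPM with TAF3 and 102, 93.9 and 97.1 CPM in Control, a log2 fold change of 0.35 (standard error 0.0597) and an edgeR adjusted p of 8.12e-06. CEP250 had −0.27 with an adjusted p of 1.98e-04 and SH3KBP1 −0.22 with 0.00301. For HTT the estimate was −0.12 (95% interval −0.23 to 0.00), for GAB2 −0.23 (−0.49 to 0.04) and for ZC3H7B −0.09 (−0.21 to 0.04).

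Across all 17 HEK293T libraries, the genes with log2 levels most like those of HTT were ZC3H7B (r = 0.992), DOCK1 (0.991), ZC3H11A (0.991), DNMT3A (0.99) and GALNT16 (0.99), by Pearson's correlation. The points share the low control ASO libraries, and the 6 genes were chosen for that pattern. Among the 14 other libraries, r with HTT was 0.815 for CEP250, 0.728 for ZC3H7B, 0.586 for SH3KBP1, 0.202 for GAB2 and −0.04 for LAS1L, and the median over all genes was 0.01. CEP250 and ZC3H7B had the highest r of any pair, 0.836. These 14 libraries fall into groups and share tables and scaling, so the correlations describe them only.

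Genes next to the 6 were examined because a neighbour shares the chromosomal region and not the rule. Of the 10908 genes that averaged 100 counts or more, 19.0% lay wholly below the other libraries with the control ASO and 21.1% wholly above. Of all genes tested, 24.4%, 22.5% and 24.9% were called with the SETD5-AS1, LINC00641 and LINC00662 ASOs. HTT-AS, an antisense gene that lies 167 bases from the start of HTT (chr4:3065198-3076241, minus strand), had 11, 10 and 13 counts with the control ASO and 0 to 6 counts in the other libraries. Its levels were 0.849, 0.868 and 1.17 CPM against 0 to 0.454 CPM, so the groups did not overlap and the direction was opposite to that of HTT. HTT-AS had a log2 fold change over the control ASO of −2.52 with the SETD5-AS1 ASO (edgeR adjusted p 0.00216), −1.65 with that against LINC00641 (0.0345) and −1.95 with that against LINC00662 (0.00883). The call with the LINC00641 ASO of HTT-AS was lost with DESeq2 (adjusted p 0.0867) and with the replicate block (0.0687). It was also lost without LINC00641 ASO replicate 2 (0.0552) or 3 (0.186) and without control ASO replicate 1 (0.0519) or 3 (0.0892). Counting by strand was not stated, and these counts are few.

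MSANTD1, 420 bases beyond the end of HTT on the same strand, went in the direction of HTT. It had 0.0898 to 0.618 CPM with the control ASO, from 1 to 8 counts, and 0.618 to 1.82 CPM elsewhere, from 8 to 21 counts. Its counts are thus few, and its ranges nearly met. It was called higher with the SETD5-AS1 ASO at a log2 fold change of 1.32 (edgeR adjusted p 0.0488) and with that against LINC00662 at 1.32 (0.048), and not with that against LINC00641 (0.95, 0.233). Both MSANTD1 calls were lost with DESeq2 (0.0938 and 0.0912), with the replicate block (0.0643 and 0.075) and without control ASO replicate 2 (0.0648 and 0.0556) or 3 (0.167 and 0.195). The first was also lost without SETD5-AS1 ASO replicate 1, 2 or 3, and the second without LINC00662 ASO replicate 1 or 3.

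USP35, a deubiquitinase gene 586 bases from the end of GAB2 on the opposite strand, had 8.96, 9.28 and 9.70 CPM with the control ASO and 13.2 to 23.8 CPM in the other libraries, without overlap. It was called in each comparison with the control ASO, with log2 fold changes of 1.10, 0.86 and 1.16 for the SETD5-AS1, LINC00641 and LINC00662 ASOs. MAP3K15, next to SH3KBP1, had 14.9 to 15.96 CPM with the control ASO. On the log2 scale MAP3K15 rose by 0.86 with the ASO against SETD5-AS1 and by 0.77 with that against LINC00641, and fell by 1.58 with that against LINC00662. The value for LINC00641 was under the fold threshold with the replicate block (0.73) and without LINC00641 ASO replicate 3 (0.74) or control ASO replicate 1 (0.73) or 3 (0.75). CXorf23, on the other side of SH3KBP1, had 7.29 to 9.26 CPM with the control ASO and 10.6 to 14.7 CPM elsewhere, without overlap. Its log2 fold changes of 0.52, 0.63 and 0.61 were under the threshold, with edgeR adjusted p of 0.00608, 0.00321 and 0.00101, and the second reached 0.80 without LINC00641 ASO replicate 2. Next to LAS1L, ZC3H12B rose by 1.51 with the ASO against SETD5-AS1 and fell by 1.63 with that against LINC00662 (0.88 and not called with that against LINC00641), from 0.898 to 1.65 CPM with the control ASO, although the latter call was lost without control ASO replicate 2 (edgeR adjusted p 0.0618). On the other side of GAB2, the noncoding gene RP11-452H21.4 went opposite to GAB2, with log2 fold changes of −0.68, −0.69 and −1.44. Only the last, with the LINC00662 ASO, was called (edgeR adjusted p 0.0459). RP11-452H21.4 had few counts, 7 to 10 with the control ASO and 1 to 13 elsewhere. TEF, next to ZC3H7B, and GDF5, next to CEP250, were called in 0 of the 3 comparisons, in each of which they had lower estimates than with the control ASO.

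Known partners and paralogs of the 6 were listed as 33 genes, of which 30 or 31 were tested in a comparison with the control ASO. With the SETD5-AS1 ASO 2 of 31 rose and 2 fell, where 12.9% of all genes rose and 11.5% fell. For the LINC00641 ASO 1 of 30 rose and 3 fell, where the shares of all genes were 11.0% and 11.5%. For the LINC00662 ASO 2 of 31 rose and 3 fell, and the shares were 11.6% and 13.3%. Their median log2 fold changes were 0.02, −0.05 and 0.13, and those of all genes 0.03, 0.00 and 0.00. Only GAB3, a paralog of GAB2, was called in all 3, and its log2 fold changes were −1.16, −1.77 and −2.79, at 1.54 CPM or less. The first of these GAB3 calls was lost without control ASO replicate 2 (edgeR adjusted p 0.0689). GAB1, another paralog, rose by 0.77 with the ASO against SETD5-AS1 and by 0.97 with that against LINC00641, and the first value fell under the threshold without control ASO replicate 2 (0.69) or SETD5-AS1 ASO replicate 3 (0.69). With the ASO against LINC00662 the GAB1 estimate was −0.75 (edgeR adjusted p 1.11e-05), just under the fold threshold, and it was called lower with DESeq2 (−0.76), its size factors (−0.76), filterByExpr (−0.76) and all ASO groups in 1 fit (−0.81). It was also called lower without LINC00662 ASO replicate 3 (−0.77) or control ASO replicate 2 (−0.82). PIK3R1, the PI3 kinase subunit that GAB2 docks, fell by 0.80 with the ASO against SETD5-AS1 and by 0.97 with that against LINC00641. The first of these PIK3R1 values was −0.66 with library size alone. Of the 33 genes, 9 were called at least once. Among them, CBL (0.88), SH3GL2 (0.79) and SH3GL3 (−2.37) were called with the LINC00662 ASO. SOS1 (−0.88) was called with the ASO against LINC00641 and PACSIN1 (0.80) with that against SETD5-AS1. Of the HTT partners not called, HIP1 had higher estimates in all 3 (0.59, 0.67 and 0.52). SETD2 had −0.19, −0.24 and 0.19, and F8A1 had lower estimates in all 3. Among the partners of LAS1L in its complex, PELP1, TEX10, WDR18, SENP3, NOL9 and MDN1 were called in 0 comparisons with the control ASO. MDN1 had higher estimates in all 3, as LAS1L did, at 0.64, 0.49 and 0.72 on the log2 scale, with edgeR adjusted p of 1.14e-06, 2.49e-05 and 3.36e-09. TEX10 was also higher in all 3, at 0.26, 0.34 and 0.45. In the opposite direction, PELP1 (−0.56, −0.38 and −0.18), WDR18 (−0.37, −0.17 and −0.61) and NOL9 (−0.32, −0.39 and −0.02) had lower estimates in all 3. SENP3 had −0.06, −0.25 and 0.17. WDR18 had the lowest estimate of these genes, −0.61 with the LINC00662 ASO. ZC3H7A, the paralog of ZC3H7B, was also called in 0.

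Gene length moved with the control ASO difference. By quintiles of gene span, from the shortest to the longest, the median log2 difference of the control ASO from the mean of the other groups was 0.21, 0.13, 0.01, −0.11 and −0.43 over 10908 genes. By quintiles of exon length it went from 0.13 to −0.24. The share of genes with a gap of at least 1 was 0.275% in the shortest quintile by span and 2.43% in the longest. HTT (169 kb), SH3KBP1 (354 kb) and GAB2 (203 kb) belong to the longest quintile by span, CEP250 (56.8 kb) and ZC3H7B (58.6 kb) to the next, and LAS1L (22.2 kb) to the second shortest. By exon length the longest quintile began at 9.598 kb. It held HTT (21.4 kb), CEP250 (19.79 kb), SH3KBP1 (16.29 kb), LAS1L (12.56 kb) and ZC3H7B (10.52 kb), and GAB2 (6.775 kb) belonged to the next. Their control ASO levels, 17.5% to 28.8% of the other groups, lay far below the median of any quintile. The part of gene length in the low levels was not tested.

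**Figure D4:**
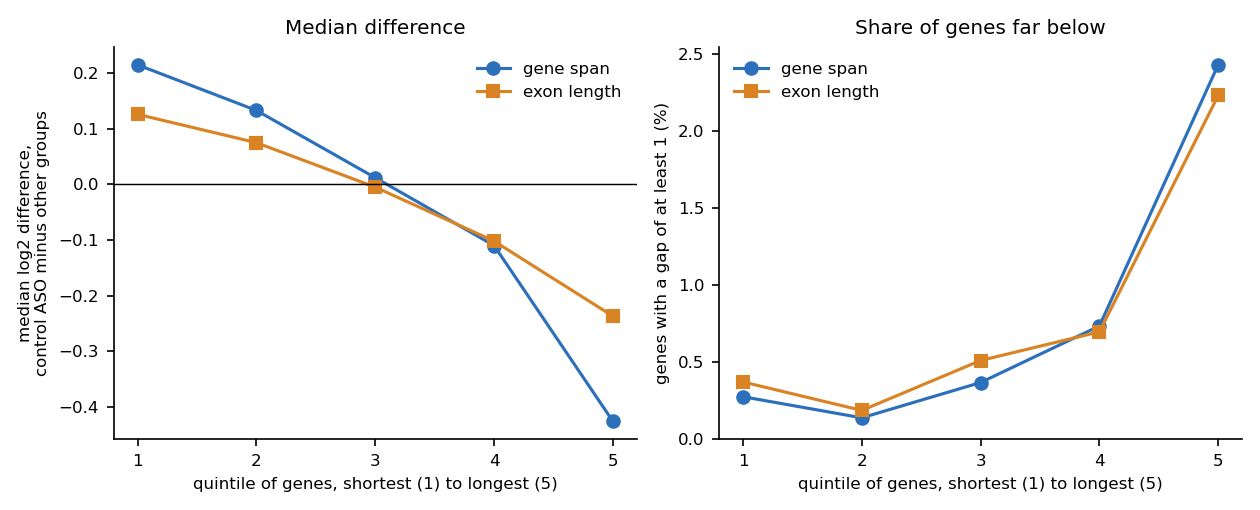
Left: median log2 difference of the control ASO libraries from the mean of the other groups, by quintiles of genes from the shortest to the longest, for gene span (circles) and exon length (squares). Right: percent of genes in each quintile with a gap of at least 1 on the log2 scale, which was 0.275% in the shortest and 2.43% in the longest quintile by span.

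The promoter of HTT is shown because the 6 genes were low together, with its GC boxes (GGGCGG or its reverse complement CCGCCC) and CCAAT boxes (CCAAT or ATTGG) in capitals. It is the stretch of 250 bases before the RefSeq start, GRCh38.p14 chr4:3074431-3074680, plus strand.
HTT promoter: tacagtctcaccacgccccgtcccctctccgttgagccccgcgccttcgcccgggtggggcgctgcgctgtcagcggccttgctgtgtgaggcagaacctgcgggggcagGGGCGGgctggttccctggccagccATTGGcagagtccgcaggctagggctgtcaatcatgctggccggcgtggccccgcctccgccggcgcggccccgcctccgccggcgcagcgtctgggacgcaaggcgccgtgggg

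This window held 1 GC box and 1 CCAAT box, and a stretch of 20 bases that occurs 2 times (ggccccgcctccgccggcgc). Its GC content was 74.8%, and the median over 35116 promoter windows was 58%. A GC box was found in 42.6% of all windows and a CCAAT box in 32%. The window of LAS1L had 4 CCAAT boxes and no GC box, that of ZC3H7B had 2 GC boxes and no CCAAT box, and the first of 2 windows of GAB2 had 4 GC boxes. SH3KBP1 had 4 windows, none with a GC box and 2 with a CCAAT box, and CEP250 was not in the table. No motif of these was thus present in every one of the genes with a window, which says only that the letters are not in these windows.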

How the data were processed

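The deposited values were raw read counts per gene, made by the authors with fastp 0.23.1, HISAT2 2.1.0 (hg19) and featureCounts 2.0.1 over GENCODE genes, per the submitters' processing notes and the methods. The use of strand and of reads shared between genes was not stated. Of 47 samples, 23 libraries in 3 tables were used. HEK293T Chrom-seq was not analysed here. Titles of the samples gave the groups, and each count column used matched 1 sample.

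Counts were tested by quasi-likelihood in edgeR 4.0.16 (R 4.3.3, TMM, Benjamini-Hochberg adjustment) on the 2 groups compared, for genes with a summed count above 3 per library. Levels are CPM with TMM factors over the 17 HEK293T RNA-seq libraries or the 6 HCT116 libraries. Levels for gaps and correlations were log2(CPM + 0.5). Alternatives were DESeq2 1.42.0, its size factors, library size alone, other filters, a replicate block, all ASO groups in 1 fit and leaving out each library. Replicate numbers come from the titles. Every same-numbered pair correlated above 0.1 in deviations from the group means between the SETD5-AS1 and LINC00662 ASOs (r = 0.142 to 0.229) and between CBX7 and Control (0.163 to 0.4). Unlike pairs had −0.128 to −0.058 in the former. In the latter, CBX7 replicate 1 with Control replicate 3 had 0.232, and the other unlike pairs had −0.384 to −0.045. Replicates were never identical, with a chi-square per gene of 2.48 or more. The procedure was tested on simulated data. PCR reads are not independent molecules.

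Exon lengths and locations came from GENCODE v44 lifted to GRCh37, the build of the files, as the union over transcripts. Promoters came from RefSeq (GRCh38.p14), where 5 of the 6 genes matched. The named genes were the 6 genes, their listed partners and paralogs, their nearest and overlapping neighbours, the genes most like HTT and those with gaps like theirs. The genes, lists and tests were chosen with earlier results of these data known.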

Additional observations from a re-analysis of the deposited data

How the results depend on the processing

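GAB2 between the SETD5-AS1 and LINC00662 ASOs kept its direction and its call in every alternative, also without each library in turn. Genes called between the SETD5-AS1 and LINC00641 ASOs numbered 316, and from 177 to 356 with a library left out, where 177 and 198 came without LINC00641 ASO replicates 2 and 3. Without either of these, 0 in place of 1 of the 6 genes had an adjusted p under 0.05 at any fold. For CBX7 against Control that number was 5, and 3 with DESeq2, DESeq2 size factors or library size alone, and from 2 to 6 with a library left out. With library size alone the control ASO level was 17.2% of the other groups for HTT, 23.7% for LAS1L, 24.3% for CEP250 and 26.9% for ZC3H7B. Signs turned only for differences near 0 that were not called. With library size alone, CEP250 turned to 0.012 between the SETD5-AS1 and LINC00641 ASOs and ZC3H7B to 0.022 between the SETD5-AS1 and LINC00662 ASOs. With the replicate block, CEP250 turned to 0.012 between the LINC00641 and LINC00662 ASOs. With a library left out, the SETD5-AS1 and LINC00641 ASOs differed by −0.027 to 0.033 for HTT, −0.104 to 0.014 for CEP250 and −0.062 to 0.089 for ZC3H7B. The range was −0.096 to 0.055 for ZC3H7B between the SETD5-AS1 and LINC00662 ASOs. Between the LINC00641 and LINC00662 ASOs it was −0.146 to 0.035 for LAS1L, −0.066 to 0.063 for CEP250 and −0.065 to 0.007 for ZC3H7B. The cause of these shifts was not tested. The replicate block ended calls of HTT-AS and MAP3K15 with the LINC00641 ASO and both calls of MSANTD1, and changed no call of the 6 genes in the 5 comparisons tested. The 2 planned comparisons of HEK293T Chrom-seq were not run. With 2 or 3 libraries a group, small differences may not be detectable.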
